A study of Mus musculus with 9 samples.

Results

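The genes that mark plasma cell identity were followed in the 5TGM1 mouse myeloma line: the transcription factors *Irf4*, *Prdm1* and *Xbp1*, the coactivator *Pou2af1*, the cytokine receptors *Tnfrsf17* and *Tnfrsf13b*, the surface proteins *Sdc1*, *Slamf7* and *Cd38*, and the endoplasmic reticulum protein *Mzb1*. They were chosen by name, and all 10 were found among the 53077 genes of the tables. RNA was sequenced from 5TGM1 cells that expressed Cas9 and carried a control guide RNA (gRNA) against *Rosa26*, a gRNA against *Slc2a1* (which encodes the glucose transporter GLUT1), or a combination of gRNAs for *Slc2a1* and its relatives *Slc2a3*, *Slc2a5*, *Slc2a6* and *Slc2a8*, here written *Slc2a1/3/5/6/8* gRNA, with 3 biological replicates in each of the 3 populations. Every sample came from the same line and carried Cas9, and no primary plasma cell was among the samples. The gRNA-transduced cultures were mixtures of edited and unedited cells. The line for the combined deletion had been sorted on its reporters and expanded before the *Slc2a1* gRNA was added, so the deletions and this history cannot be told apart.

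Plasma cells are antibody-secreting cells that arise from B cells, and a myeloma is a tumour of such cells. IRF4 and BLIMP-1, the product of *Prdm1*, establish this state while the factors of the B cell are turned down, and XBP1, made as an active factor after IRE1 splices its transcript, enlarges the secretory machinery. Receptors for the cytokines BAFF and APRIL sustain survival, and CD138, the product of *Sdc1*, is the surface marker by which plasma cells are sorted.

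Each sample held between 21838805 and 30537105 estimated counts. *Slc2a1* itself lay between 2398 and 5063 scaled counts in control cells, between 2499 and 3131 in *Slc2a1* gRNA cells, where it did not pass the test (adjusted p = 0.544), and between 1350 and 2379 in *Slc2a1/3/5/6/8* gRNA cells (adjusted p = 0.029). Of the other targets in *Slc2a1/3/5/6/8* gRNA cells against control, *Slc2a8* (-1.22, adjusted p = 0.000309) and *Slc2a6* (-0.67, adjusted p = 0.0366) fell on the log2 scale, *Slc2a3* did not pass (0.27, adjusted p = 0.259), and *Slc2a5* rose from 5.34 to 7.81 scaled counts to 32.3 to 46.1 (adjusted p = 0.00478). Small insertions and deletions need not lower a transcript, so these levels are no check of editing, and the populations are called deleted only after their gRNAs. Replicate 1 of the *Slc2a1/3/5/6/8* gRNA cells differed most from its own replicates, with a chi-square per degree of freedom over genes of 75.6 and 111, against 20.8 to 59.5 for the other pairs within a population. Mitochondrial genes held between 4.84% and 11.1% of counts, highest in that sample and next in *Slc2a1* gRNA replicate 2 (10.5%). Scaled counts are estimated counts divided by the TMM-corrected library size and brought to a common depth, and TPM values are per length and can be set side by side between genes.

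Of the 10 identity genes, 8 had means above 24 TPM in control cells. *Xbp1* was the highest at 469 ± 87.5 TPM (SD, n = 3), above 99.6% of all genes in the tables. *Pou2af1* at 188 ± 29.5 TPM and *Tnfrsf13b* at 179 ± 22.0 TPM came next, with ranges that overlapped. *Irf4* at 112 ± 22.3 TPM, *Mzb1* at 108 ± 44.8 TPM and *Sdc1* at 94.6 ± 16.5 TPM also overlapped one another, so no order among them can be read. *Slamf7* at 39.4 ± 9.52 TPM and *Prdm1* at 24.4 ± 8.27 TPM overlapped as well, and *Prdm1* still lay above 93.3% of genes. Only 19517 to 19813 of the 53077 genes were above 0 in a control sample, so these shares include many undetected genes. The other two were near the limit of detection: *Tnfrsf17* was at 0.912 ± 0.562 TPM and *Cd38* had no count in any control sample. Scaling by TMM per kilobase in place of TPM kept *Xbp1* first and *Tnfrsf13b* in position 3.

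**Figure D1:**
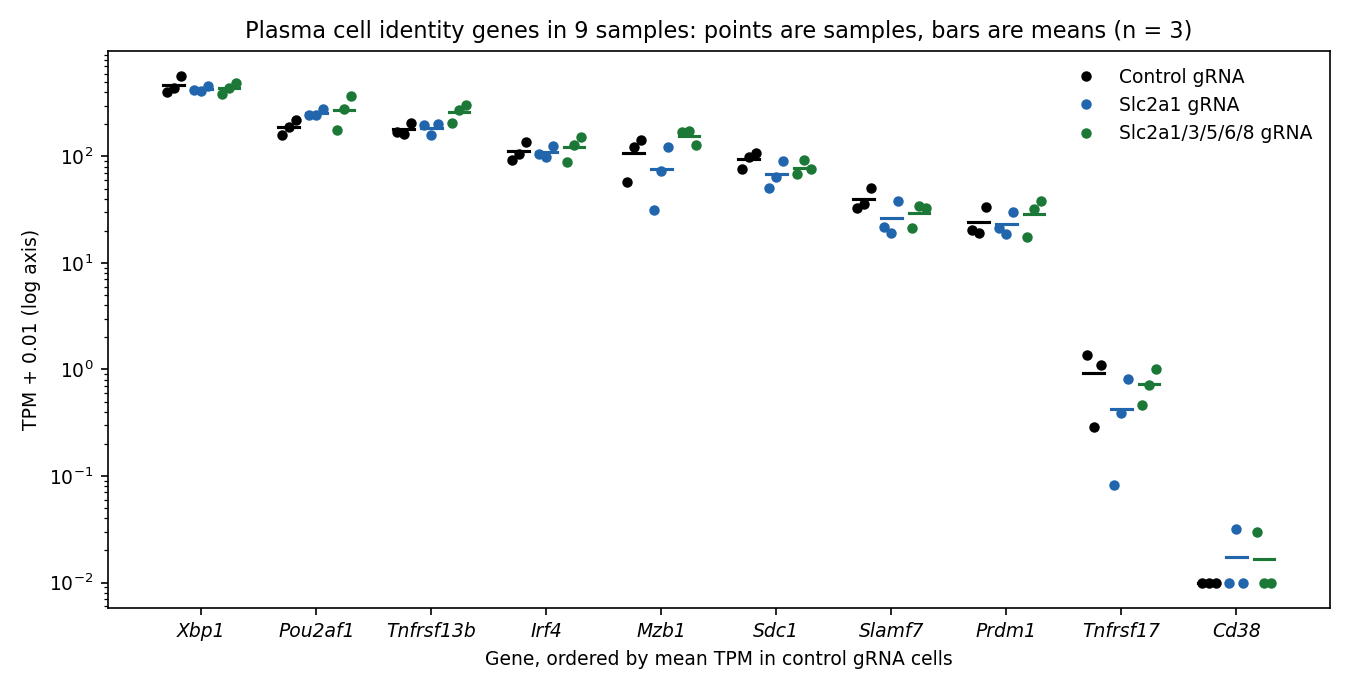
TPM plus 0.01 on a log axis for the 10 identity genes, ordered by their mean in control gRNA cells. Each point is a sample, each bar the mean of 3 samples, and colour gives the population. *Xbp1* (469 TPM in control cells) stands above the rest, while *Tnfrsf17* (0.912 TPM there) and *Cd38* (0 TPM there) stand apart at the bottom in every population.

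Genes of other lineages were measured beside them. T cell, myeloid, erythroid and stromal marker lists, 22 genes in all, had mean levels under 1 TPM for each gene in each population, and their summed levels lay between 0.0969 and 1.85 TPM. *Pdgfra*, a stromal receptor named after its values were seen, had between 1 and 40 estimated counts in each control and *Slc2a1* gRNA sample and none in the *Slc2a1/3/5/6/8* gRNA samples. Of 35 genes of the B cell programme, 24 had means under 1 TPM in each population and 11 had means of at least 1 TPM. *Pax5*, the factor that holds B cell identity, was at 0.236 ± 0.0898 TPM in control cells, *Ms4a1*, which encodes CD20, at 0.101 TPM, *Bcl6* at 0.0185 TPM and *Cd79a* at 0.0678 TPM. *Cd79b*, the partner of *Cd79a* in the B cell receptor, was at 134 ± 16.6 TPM. *Cd74*, the invariant chain of antigen presentation, was at 1066 ± 142 TPM. The transcription factor genes *Mef2c*, *Foxo1* and *Spi1* of this list had mean scaled counts of 7708, 2114 and 1129 in control cells, beside 36.4 for *Pax5*. Not every gene of the list, and not every factor, was thus low. Of the plasma cell markers of this line, labelled multiple myeloma, *Cd38* had at most 2 estimated counts in any sample and *Tnfrsf17* rested on a few counts.

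Between populations, 9 of the 10 identity genes could be tested, since *Cd38* did not pass the filter on low counts. In *Slc2a1* gRNA cells against control, 1 of 9 passed an adjusted p of 0.05 (edgeR quasi-likelihood test over 13834 genes), where 4.64% of all genes passed, and 3 were at an unadjusted p under 0.05, beside 22.0% of all genes. In *Slc2a1/3/5/6/8* gRNA cells against control, 2 of 9 passed, where 15.9% of all genes passed, and 4 were at an unadjusted p under 0.05, beside 31.4% of all genes. Between the *Slc2a1/3/5/6/8* gRNA and *Slc2a1* gRNA cells, 0 of 9 passed by edgeR and 0 by DESeq2, with 1 at an unadjusted edgeR p under 0.05, where 2.31% of all genes passed after adjustment and 19.1% before. The genes that rose were *Pou2af1* in both deleted populations and *Tnfrsf13b* in *Slc2a1/3/5/6/8* gRNA cells, and no identity gene fell past the threshold in this fit. With only the samples of *Slc2a1* gRNA and control cells in the fit, 4 passed there, *Pou2af1* higher and *Sdc1*, *Slamf7* and *Mzb1* lower, and with low counts kept *Mzb1* was also called lower (adjusted p = 0.0166). Over all genes 2.25% were higher and 2.39% lower in *Slc2a1* gRNA cells, 8.49% and 7.44% in *Slc2a1/3/5/6/8* gRNA cells, and 1.36% and 0.947% between the deleted populations. The median log2 fold change over the 9 genes was 0.12, 0.19 and 0.16 in these comparisons, beside 0.00, 0.01 and 0.00 over all genes tested. These medians rest on single samples: with a sample left out the first ran from 0.041 without control replicate 2 to 0.15 without control replicate 3, and was also 0.048 without *Slc2a1* gRNA replicate 1 and 0.063 without control replicate 1, and the second ran from 0.052 without *Slc2a1/3/5/6/8* gRNA replicate 1 to 0.369 without control replicate 1. The third ran from 0.072 without *Slc2a1/3/5/6/8* gRNA replicate 2 to 0.23 without its replicate 3. By limma on log2(TPM + 1) the first was -0.112, beside -0.111 over all genes. The first pair of comparisons shares its control samples, so their values are given side by side and are not independent. In bulk RNA, fewer cells of a type and less RNA per cell cannot be told apart.

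**Figure D2:**
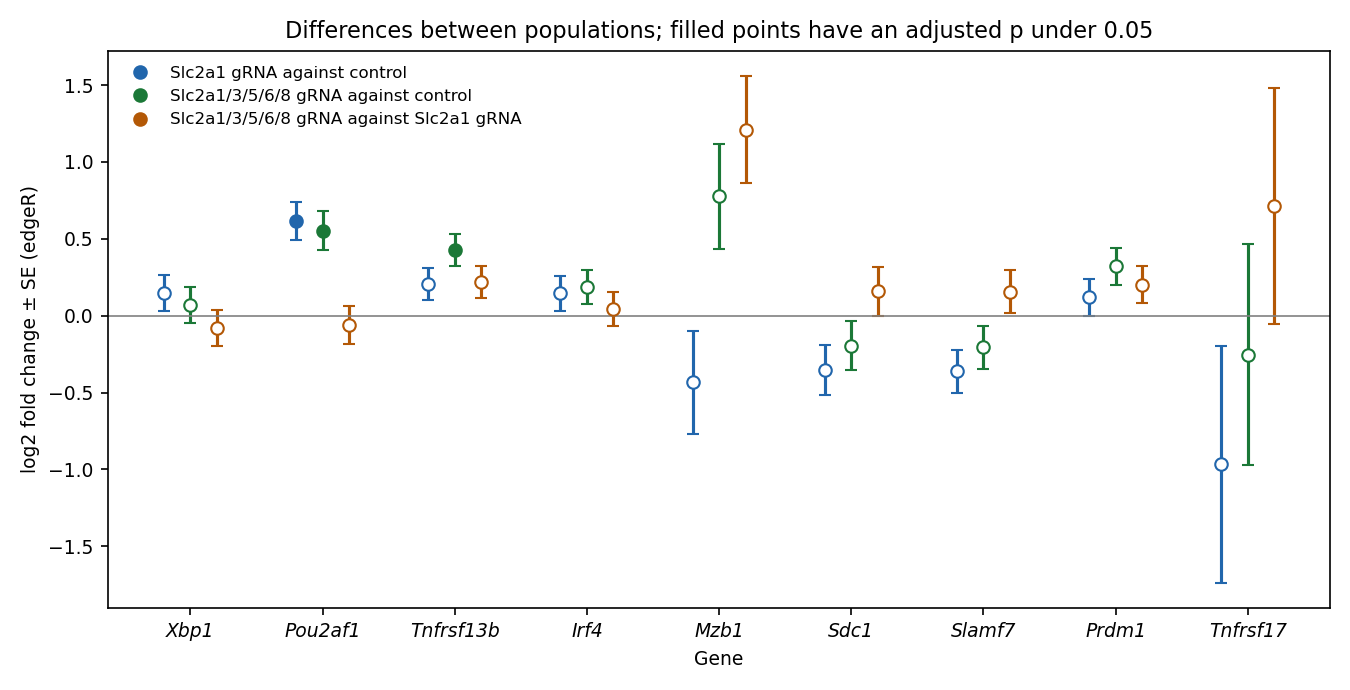
Log2 fold change with its standard error from edgeR for the 9 identity genes tested, in 3 comparisons (colours). Filled points passed an adjusted p of 0.05: *Pou2af1* in both comparisons with control and *Tnfrsf13b* in *Slc2a1/3/5/6/8* gRNA cells. *Mzb1* (standard errors of 0.33 to 0.35) and *Tnfrsf17* have the widest error bars.

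*Pou2af1* encodes OCA-B, which binds the POU factors OCT1 and OCT2 on octamer sites of immunoglobulin promoters. Its scaled counts were 10688, 13347 and 12748 in control cells, 17795, 19516 and 18686 in *Slc2a1* gRNA cells, and 14799, 17497 and 21992 in *Slc2a1/3/5/6/8* gRNA cells. All 6 samples of the deleted populations were above all 3 control samples, and the spread was widest in the *Slc2a1/3/5/6/8* gRNA cells. *Pou2af1* rose 1.53-fold in *Slc2a1* gRNA cells (log2 fold change 0.61, SE 0.12, adjusted p = 0.0207), higher in 3 of 3 same-numbered pairs. It rose 1.47-fold in *Slc2a1/3/5/6/8* gRNA cells (log2 fold change 0.55, SE 0.12, adjusted p = 0.0121), again in 3 of 3 pairs. The deleted populations differed from each other by a log2 fold change of -0.06 (SE 0.12, adjusted p = 0.836), and their values overlapped. The first call was lost without any of the control replicates (adjusted p of 0.143, 0.0872 and 0.153) or *Slc2a1* gRNA replicates 1 and 2 (0.109 and 0.115), and the second without control replicate 1 (0.0821), control replicate 3 (0.0964) or *Slc2a1/3/5/6/8* gRNA replicate 3 (0.0698). Both calls held without *Slc2a1/3/5/6/8* gRNA replicate 1. On the log2(TPM + 1) scale neither passed limma's test (log2 differences 0.46 and 0.50, adjusted p of 0.181 and 0.112).

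The POU partners of OCA-B did not share these calls. *Pou2f2*, which encodes OCT2, was at 19.2 ± 4.43, 19.6 ± 3.63 and 16.1 ± 5.57 TPM in control, *Slc2a1* gRNA and *Slc2a1/3/5/6/8* gRNA cells, with adjusted p of 0.41 and 0.682 against control. *Pou2f1*, which encodes OCT1, was at 8.63 ± 1.45, 6.93 ± 2.25 and 7.56 ± 3.51 TPM in the same order, with adjusted p of 0.243 and 0.716.

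The promoters of the genes that rose are shown because both were read for motifs of factor families in this set, each on both strands. These were the octamer (ATGCAAAT) and the core of the unfolded protein response element bound by XBP1 (TGACGTGG). The others were the interferon-stimulated response element (GAAA, 2 bases of any kind, GAAA) and the Ets-IRF composite element (GGAA, 2 bases of any kind, GAAA). Matches of these elements do not single out IRF4 among IRF factors. RefSeq sequence of GRCm38.p6 from 250 bases upstream to the base before the start site is written 5′ to 3′ on the strand of the gene, with a matched motif in capitals. The *Pou2af1* window lies at chr9:51213440-51213689 and the *Tnfrsf13b* window at chr11:61126505-61126754, both on the plus strand.
Pou2af1: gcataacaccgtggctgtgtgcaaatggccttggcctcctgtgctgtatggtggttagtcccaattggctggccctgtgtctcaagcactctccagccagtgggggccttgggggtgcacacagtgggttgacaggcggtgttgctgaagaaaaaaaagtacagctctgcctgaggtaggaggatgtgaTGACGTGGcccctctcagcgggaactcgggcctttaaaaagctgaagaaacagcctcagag
Tnfrsf13b: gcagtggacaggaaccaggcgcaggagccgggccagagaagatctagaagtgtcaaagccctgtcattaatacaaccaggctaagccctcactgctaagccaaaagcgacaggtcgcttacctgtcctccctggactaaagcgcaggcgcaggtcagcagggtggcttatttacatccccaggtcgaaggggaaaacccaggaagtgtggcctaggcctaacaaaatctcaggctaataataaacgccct

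The unfolded protein response core lay in the *Pou2af1* window at chr9:51213629-51213636, 61 bases upstream of the start. Among the 9 identity genes with a RefSeq promoter in the table (*Mzb1* was not among them) it was present in 1, and in 185 of 32851 promoters (0.563%) of the same length. None of the 9 held the octamer (1.6% of promoters) or the Ets-IRF composite element (2.3%). The interferon-stimulated response element (2.98%) was held by 1, *Tnfrsf17*, 101 bases upstream of its start. The *Tnfrsf13b* window held none of the 4 motifs. These are matches of letters and not shown to be bound.

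*Tnfrsf13b* encodes TACI, a receptor for BAFF and APRIL. Its scaled counts were 4646, 4855 and 4648 in control cells, 5769, 5192 and 5384 in *Slc2a1* gRNA cells, and 6167, 6288 and 6534 in *Slc2a1/3/5/6/8* gRNA cells. The 3 populations did not overlap, with control lowest and *Slc2a1/3/5/6/8* gRNA cells highest. *Tnfrsf13b* rose 1.34-fold in *Slc2a1/3/5/6/8* gRNA cells (log2 fold change 0.42, SE 0.10, adjusted p = 0.018), in 3 of 3 pairs. The step from control to *Slc2a1* gRNA cells (0.21, SE 0.10) and that from *Slc2a1* gRNA to *Slc2a1/3/5/6/8* gRNA cells (0.22, SE 0.10) did not pass (adjusted p of 0.267 and 0.284). The call in *Slc2a1/3/5/6/8* gRNA cells was lost without control replicate 1, 2 or 3 (adjusted p of 0.133, 0.0612 and 0.113) or *Slc2a1/3/5/6/8* gRNA replicate 3 (0.0762), at log2 fold changes of 0.40 to 0.47, and held without its replicate 1. On the log2(TPM + 1) scale it was 0.52 with an adjusted p of 0.073 by limma.

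**Figure D3:**
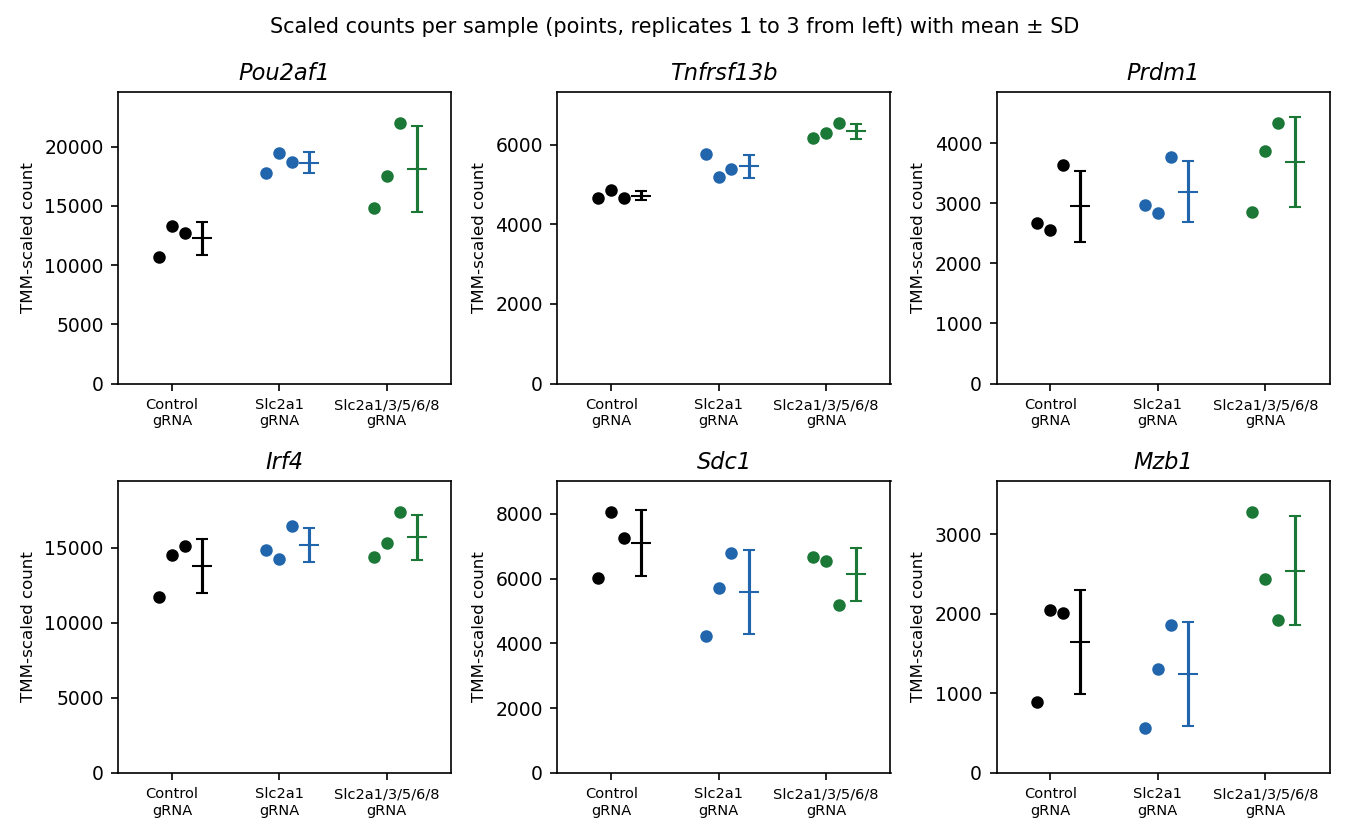
TMM-scaled counts of 6 identity genes, with each sample as a point (replicates 1 to 3 from left to right in each population) and the mean ± SD beside them, on axes that start at 0. *Pou2af1* and *Tnfrsf13b* have all samples of both deleted populations above the control samples, while *Prdm1*, *Irf4*, *Sdc1* and *Mzb1* overlap with control.

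The tables also give for each gene a transcript length weighted by the abundance of its transcripts, a readout of transcript choice that the count test does not use. For *Tnfrsf13b*, which has 7 annotated transcripts of 364 to 2556 bases, it was 1184, 1230 and 1166 bases in control cells, 1180, 1219 and 1179 bases in *Slc2a1* gRNA cells and 1081, 1124 and 1079 bases in *Slc2a1/3/5/6/8* gRNA cells. All 3 *Slc2a1/3/5/6/8* gRNA samples lay below the other 6. The difference was -98.7 bases against control and -97.7 bases against *Slc2a1* gRNA cells, each with an exact two-sided permutation p of 0.1, the smallest that 3 against 3 samples allow. The weighted length of *Xbp1* had a mean of 1675 bases in control and 1780 bases in *Slc2a1* gRNA cells, without overlap (exact permutation p = 0.1) and was 1783 bases, with overlap, in *Slc2a1/3/5/6/8* gRNA cells. That of *Slamf7* was 2116 bases in control and 2339 bases in *Slc2a1/3/5/6/8* gRNA cells, without overlap (exact permutation p = 0.1). Among 8 identity genes with several transcripts, 1 had no overlap between *Slc2a1* gRNA and control cells, 2 between *Slc2a1/3/5/6/8* gRNA and control cells and 1 between the deleted populations, where 12.5%, 16.1% and 10.7% of all 10839 such genes had no overlap. The 24 tests are not adjusted, since none could pass.

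**Figure D4:**
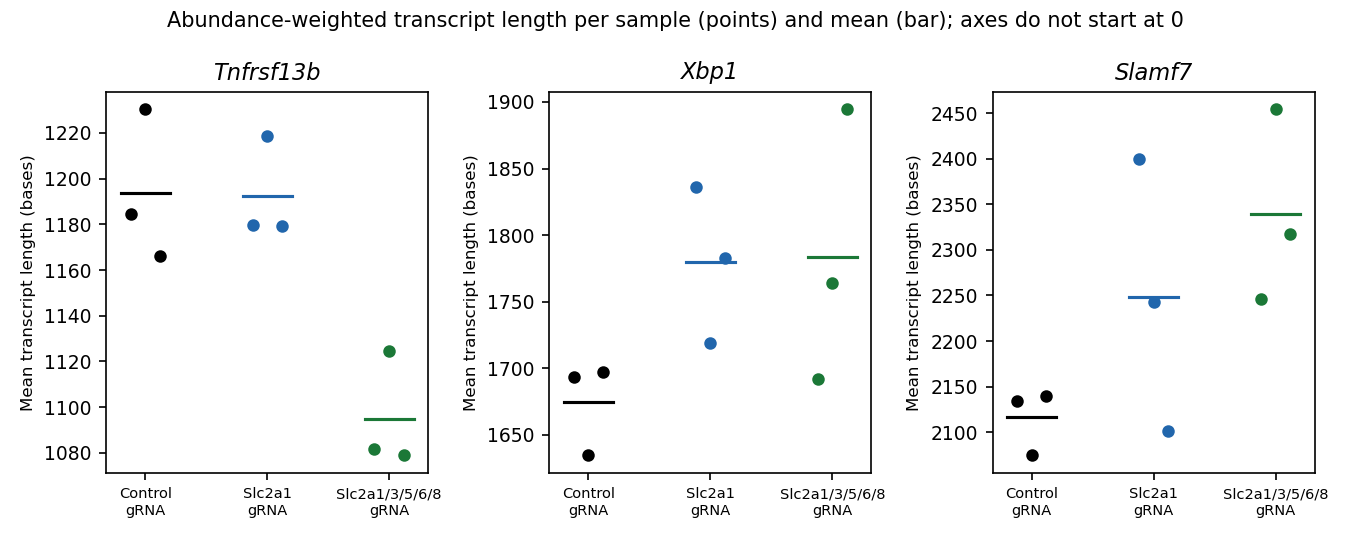
Abundance-weighted transcript length in bases for *Tnfrsf13b*, *Xbp1* and *Slamf7*, with each sample as a point and the mean of 3 as a bar; the axes do not start at 0. The *Slc2a1/3/5/6/8* gRNA samples of *Tnfrsf13b* (1079 to 1124 bases) lie below all other samples.

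*Tnfrsf17* encodes BCMA, the receptor for APRIL that mature plasma cells carry. Its estimated counts were 24, 5 and 19 in control cells, 1, 6 and 12 in *Slc2a1* gRNA cells, and 8, 9 and 16 in *Slc2a1/3/5/6/8* gRNA cells. The populations overlapped, and a floor of 3 counts corresponds to 0.168 to 0.235 TPM in these samples, so differences were hardly measurable at this depth. Its log2 fold changes were -0.97 (SE 0.77, adjusted p = 0.499) in *Slc2a1* gRNA and -0.25 (SE 0.72, adjusted p = 0.843) in *Slc2a1/3/5/6/8* gRNA cells. Floors cover counting error only.

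The remaining genes of the BAFF and APRIL axis place these receptors. The ligand genes *Tnfsf13b* (BAFF) and *Tnfsf13* (APRIL) were at 0.396 ± 0.168 and 0.0243 ± 0.0421 TPM in control cells. *Tnfrsf13c*, which encodes the BAFF receptor of B cells, was at 11.5 ± 2.69 TPM in control, 13.6 ± 2.91 TPM in *Slc2a1* gRNA and 10.5 ± 2.69 TPM in *Slc2a1/3/5/6/8* gRNA cells, and passed the test in neither (adjusted p of 0.125 and 0.82). TACI was thus the most abundant of the 3 receptor transcripts per length in each population. Of the 19 tested genes of the axis, 2 fell and 0 rose in *Slc2a1* gRNA cells, and 2 fell and 1 rose in *Slc2a1/3/5/6/8* gRNA cells, beside 4.64% and 15.9% of all genes, so the latter share is at the level of all genes. *Traf1*, an adaptor of these receptors, fell in both (log2 fold changes of -0.70 and -0.83, adjusted p of 0.0254 and 0.00405), as did *Birc2*, an inhibitor of apoptosis that binds TRAF proteins (-0.51 and -0.45, adjusted p of 0.0458 and 0.0384). *Psen2*, a subunit of the gamma-secretase that sheds BCMA, rose in *Slc2a1/3/5/6/8* gRNA cells (0.61, adjusted p = 0.0174). Of 9 fits with a sample left out, the *Birc2* calls held in 4 and 4 (adjusted p of up to 0.228 and 0.212), the *Traf1* calls in 4 and 9, and the *Psen2* call in 4.

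*Irf4* encodes a factor that plasma and myeloma cells need to survive. Its scaled counts were 11755, 14553 and 15096 in control cells, 14844, 14278 and 16489 in *Slc2a1* gRNA cells, and 14395, 15337 and 17359 in *Slc2a1/3/5/6/8* gRNA cells. Control replicate 1 was the lowest of all samples and the rest overlapped. The log2 fold changes were 0.14 (SE 0.11, adjusted p = 0.487) and 0.19 (SE 0.11, adjusted p = 0.278) against control.

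*Prdm1* had scaled counts of 2672, 2554 and 3630 in control cells, 2970, 2843 and 3775 in *Slc2a1* gRNA cells, and 2858, 3878 and 4333 in *Slc2a1/3/5/6/8* gRNA cells. Replicate 3 was the highest sample of each population, and all 3 populations overlapped. The log2 fold change was 0.12 (SE 0.12, adjusted p = 0.603) in *Slc2a1* gRNA cells and 0.32 (SE 0.12, adjusted p = 0.0862) in *Slc2a1/3/5/6/8* gRNA cells, higher in 3 of 3 pairs in both. With a sample left out in turn, the latter ran from 0.19 without *Slc2a1/3/5/6/8* gRNA replicate 2 (adjusted p = 0.286) to 0.43 without replicate 1 of these cells (adjusted p = 0.0228), and it passed in 1 of 9 such fits.

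*Xbp1* had scaled counts of 17118, 18613 and 20813 in control cells, 21303, 20725 and 20381 in *Slc2a1* gRNA cells, and 20235, 18091 and 20909 in *Slc2a1/3/5/6/8* gRNA cells. The samples of the deleted populations lay within or just above the control range. Its log2 fold changes were 0.15 (SE 0.12, adjusted p = 0.499) and 0.07 (SE 0.12, adjusted p = 0.731) against control, and on the TPM scale both were below 0 (-0.11 and -0.09 by limma on log2(TPM + 1)). These tables count all transcripts of the gene and do not tell its spliced form from the unspliced form.

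Genes listed for the XBP1 axis and its secretory targets were measured as a list of 33, here called the secretory list, all of which were tested. It includes *Ern1*, the gene of IRE1, which acts on the *Xbp1* transcript. Whether XBP1 drives these genes in these cells was not tested, so the list is no readout of XBP1 activity. In *Slc2a1* gRNA cells 4 fell and 0 rose, and 29 of the 33 log2 fold changes were negative, with a median of -0.18, beside 2.39% of all genes lower and a median of 0.00 over all genes. In *Slc2a1/3/5/6/8* gRNA cells 13 fell and 1 rose, with a median of -0.24, beside 7.44% of all genes lower, 8.49% higher and a median of 0.01. *Sdf2l1*, which encodes a cofactor of a chaperone of the endoplasmic reticulum, fell by 1.07 on the log2 scale (SE 0.15, adjusted p = 0.00123), *Manf* by 0.72 (adjusted p = 0.00149) and *Creld2* by 0.72 (adjusted p = 0.00405) in *Slc2a1/3/5/6/8* gRNA cells. *Hsp90b1*, the chaperone GRP94, fell by 0.51 (adjusted p = 0.0406), *Pdia6*, a disulfide isomerase, by 0.48 (adjusted p = 0.0452) and *Sec24d*, of the COPII coat, by 0.55 (adjusted p = 0.0255) in *Slc2a1* gRNA cells. Of 9 fits with a sample left out, these calls held in 3, 4 and 4, and with no replicate block that of *Sec24d* was lost (adjusted p = 0.06). *Herpud1*, a factor of endoplasmic reticulum-associated degradation, was the gene that rose in *Slc2a1/3/5/6/8* gRNA cells (0.37, SE 0.11, adjusted p = 0.0331), a call that held in 2 of 9 fits with a sample left out. *Ern1*, which encodes IRE1, did not pass against control (-0.18 and 0.36, adjusted p of 0.459 and 0.0874). The counts moved with the samples used: leaving out each sample in turn gave 0 to 8 calls in *Slc2a1* gRNA and 3 to 15 in *Slc2a1/3/5/6/8* gRNA cells, with 0 without control replicate 1, 2 or 3 or *Slc2a1* gRNA replicate 1 or 2, and 8 without *Slc2a1/3/5/6/8* gRNA replicate 1 in the former, and 7, 5, 3 and 4 without control replicates 1, 2 and 3 and *Slc2a1/3/5/6/8* gRNA replicate 3 in the latter.

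**Figure D5:**
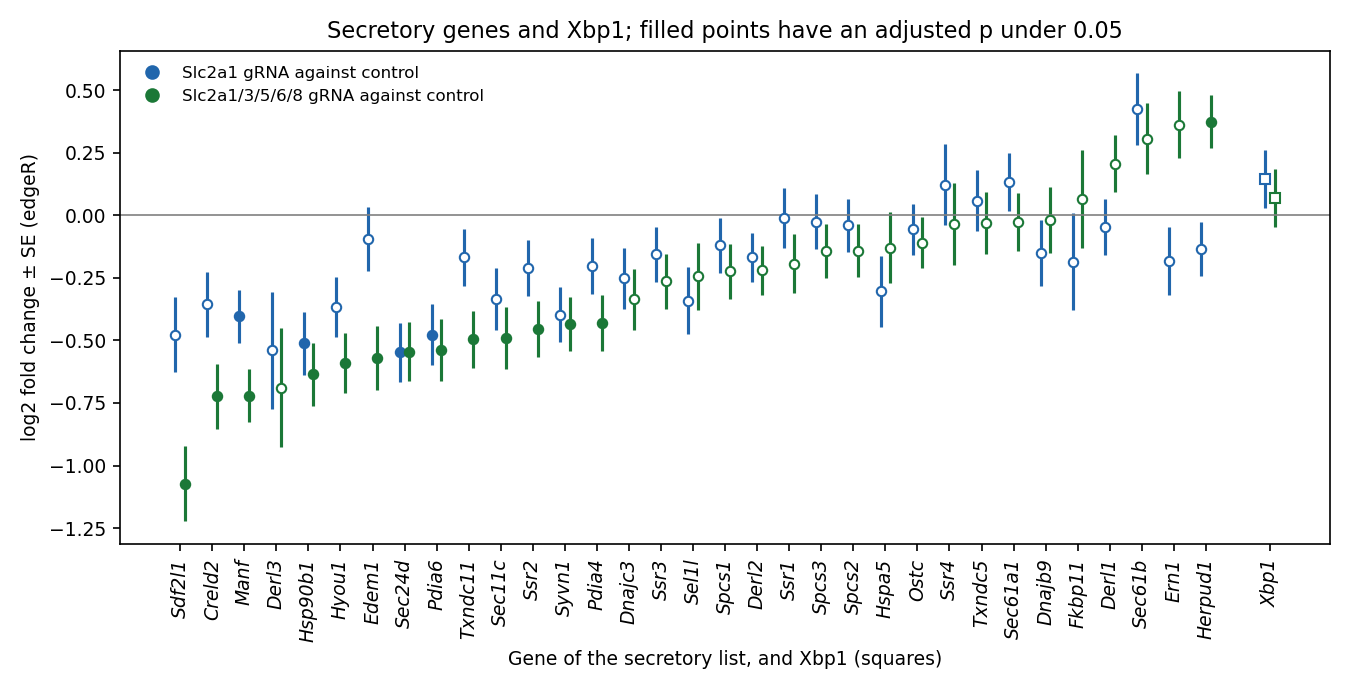
Log2 fold change with its standard error for the 33 genes of the secretory list against control, in blue for the *Slc2a1* gRNA population and in green for the combined deletion, which sets the order, with *Xbp1* as squares at the right. Filled points passed an adjusted p of 0.05: 4 below 0 in *Slc2a1* gRNA cells, and 13 below and 1 above 0 in *Slc2a1/3/5/6/8* gRNA cells, while *Xbp1* (0.15 and 0.07) did not pass.

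*Sdc1* encodes CD138, a heparan sulphate proteoglycan. Its scaled counts were 6016, 8041 and 7252 in control cells, 4219, 5711 and 6801 in *Slc2a1* gRNA cells, and 6652, 6547 and 5189 in *Slc2a1/3/5/6/8* gRNA cells. Each *Slc2a1* gRNA sample was below the same-numbered control sample, but the ranges of the populations overlapped. The log2 fold changes of -0.35 (SE 0.16, adjusted p = 0.221) and -0.20 (SE 0.16, adjusted p = 0.438) did not pass. Between the deleted populations the difference was 0.16, and -0.07 without *Slc2a1/3/5/6/8* gRNA replicate 1. *Sdc1* was the main syndecan: *Sdc3* was at 3.63 ± 0.0988 TPM in control cells, *Sdc4* at 0.00898 TPM and *Sdc2* had no count there. Of the 17 tested syndecan and heparan sulphate genes, 1 fell in *Slc2a1* gRNA cells, *Ext2*, a polymerase of the heparan chain (-0.48, adjusted p = 0.0477), where 4.64% of all genes passed. In *Slc2a1/3/5/6/8* gRNA cells, where 15.9% of all genes passed, 2 rose and 2 fell, among them *Glce*, the epimerase of the chain (0.71, adjusted p = 0.00918), *Extl2*, a glycosyltransferase (0.33, adjusted p = 0.041), and *Ndst1*, a sulphotransferase (-0.45, adjusted p = 0.0428). Of 9 fits with a sample left out, the *Extl2* call held in 1 (adjusted p of up to 0.173), that of *Ndst1* in 3, *Ext2* in 4 and *Glce* in 8. With no replicate block the calls of *Ext2* (adjusted p = 0.0509) and *Ndst1* (adjusted p = 0.0687) were lost.

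*Slamf7* encodes the surface receptor CS1. Its scaled counts were 1820, 2009 and 2427 in control cells, 1504, 1325 and 2055 in *Slc2a1* gRNA cells, and 1552, 2059 and 1776 in *Slc2a1/3/5/6/8* gRNA cells. Every *Slc2a1* gRNA sample was below its same-numbered control sample, with overlapping ranges. The log2 fold changes were -0.36 (SE 0.14, adjusted p = 0.152) and -0.20 (SE 0.14, adjusted p = 0.342). Of its exonic bases, 9.24% overlap another annotated gene, *Gm37787*, and reads there may not be told apart. Among 8 tested genes of the SLAM family and its adaptors, 0 passed edgeR's test in *Slc2a1* gRNA cells, with 0 at an unadjusted p under 0.05, and 1 rose in *Slc2a1/3/5/6/8* gRNA cells, beside 4.64% and 15.9% of all genes. That gene was *Ly9*, the receptor SLAMF3, with scaled counts of 2564, 2390 and 2456 in control and 3280, 3334 and 3334 in *Slc2a1/3/5/6/8* gRNA cells (0.43, adjusted p = 0.0166), a call that held in 5 of 9 fits with a sample left out.

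*Cd38* encodes an ectoenzyme that consumes NAD and is high on human plasma cells. It had 2 estimated counts in *Slc2a1* gRNA replicate 2, 2 in *Slc2a1/3/5/6/8* gRNA replicate 1 and 0 in the other 7 samples. These lie under the floor of 3 counts, which corresponds to 0.0298 to 0.0681 TPM, so no fold is given. Its neighbour in the same enzyme family, *Bst1*, was at 0 TPM in control cells and at most 0.0182 TPM on average. Of the 9 tested genes of NAD metabolism, 0 passed in *Slc2a1* gRNA cells by edgeR, with 2 at an unadjusted p under 0.05, beside 4.64% and 22.0% of all genes. In *Slc2a1/3/5/6/8* gRNA cells, where 15.9% of all genes passed, 2 rose: *Nmnat3*, which makes NAD (0.73, adjusted p = 0.0106), and the deacetylase *Sirt1* (0.45, adjusted p = 0.0261). Of 9 fits with a sample left out, these calls held in 8 and 4, and with no replicate block that of *Sirt1* was lost (adjusted p = 0.0548).

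*Mzb1* encodes a chaperone that aids the assembly of IgM. Its scaled counts were 896, 2046 and 2013 in control cells, 558, 1309 and 1862 in *Slc2a1* gRNA cells, and 3277, 2434 and 1927 in *Slc2a1/3/5/6/8* gRNA cells. Relative to the mean, the SD of scaled counts within each population was larger than for any other identity gene with over 100 counts. By scaled counts replicate 1 was the lowest sample in control and *Slc2a1* gRNA cells but the highest in *Slc2a1/3/5/6/8* gRNA cells. In TPM the *Slc2a1/3/5/6/8* gRNA cells were less spread, at 156 ± 23.5 TPM, and replicate 2 (172 TPM) lay above replicate 1 (168 TPM). The log2 fold changes were -0.43 (SE 0.33, adjusted p = 0.484), 0.78 (SE 0.34, adjusted p = 0.141) and, between the deleted populations, which did not overlap, 1.21 (SE 0.35, adjusted p = 0.0904). With low counts kept all 3 passed, at -0.44, 0.78 and 1.22 with an SE of 0.13 each (adjusted p of 0.0166, 1.85e-07 and 8.48e-17). Without *Slc2a1/3/5/6/8* gRNA replicate 3 the last 2 passed (1.22, adjusted p = 0.0394, and 1.70, adjusted p = 0.0237), and without its replicate 1 they were 0.05 (adjusted p = 0.862) and 0.51 (adjusted p = 0.107). Of the exonic bases of *Mzb1*, 57.2% are shared with another annotated gene, *SPATA24*, so its counts are uncertain.

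The antibody assembly gene *Jchain*, which links the monomers of IgM and IgA, passed the test between the deleted populations. Its scaled counts were 1979, 1874 and 1688 in control cells, 763, 556 and 879 in *Slc2a1* gRNA cells, and 3203, 3032 and 2122 in *Slc2a1/3/5/6/8* gRNA cells. The 3 populations did not overlap. *Jchain* fell by 1.33 on the log2 scale in *Slc2a1* gRNA cells (SE 0.18, adjusted p = 0.00529) and rose by 0.59 in *Slc2a1/3/5/6/8* gRNA cells (SE 0.17, adjusted p = 0.0348), the latter a call that held in 4 of 9 fits with a sample left out. It belongs to a list of 22 other genes of plasma cells, of which 3 passed in *Slc2a1* gRNA cells (1 higher and 2 lower) and 9 in *Slc2a1/3/5/6/8* gRNA cells (5 higher and 4 lower), beside 4.64% and 15.9% of all genes. *Epcam*, an adhesion molecule, fell in both (-0.82 and -1.39, adjusted p of 0.0062 and 3.85e-05), from a mean of 287 TPM in control cells. *Cd28*, a costimulatory receptor, rose in both (2.02 and 2.36, adjusted p of 0.00855 and 0.000778) but stayed low, at 0.390, 1.49 and 1.97 TPM on average. In *Slc2a1* gRNA cells the calls of *Jchain*, *Epcam* and *Cd28* held in 8, 7 and 7 of 9 fits with a sample left out, and *Cd28* was 0.81 by limma on log2(TPM + 1) (adjusted p = 0.125). In *Slc2a1/3/5/6/8* gRNA cells *Cd28* ran from 1.05 to 2.37 over the 10 alternatives that kept every sample, and passed in each. *Enpp1*, an ectoenzyme of plasma cells, fell in *Slc2a1/3/5/6/8* gRNA cells (-1.57, adjusted p = 0.00131).

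Among the 19 tested genes of the B cell programme, 1 passed in *Slc2a1* gRNA cells and 4 in *Slc2a1/3/5/6/8* gRNA cells, beside 4.64% and 15.9% of all genes. *Id3*, an inhibitor of E proteins, fell in both (-0.62 and -1.37, adjusted p of 0.0432 and 0.000404), and in *Slc2a1/3/5/6/8* gRNA cells *Cd74* fell (-0.64, adjusted p = 0.00734) and the kinase gene *Lyn* rose (0.60, adjusted p = 0.003). The *Id3* call in *Slc2a1* gRNA cells held in 4 of 9 fits with a sample left out and was lost with no replicate block (adjusted p = 0.0981). In *Slc2a1/3/5/6/8* gRNA cells the *Cd74* call held in 8 of 9 such fits and the *Lyn* call in 9. Of 10 other alternatives these calls held in 10 and 7, with an adjusted p of up to 0.187 for *Lyn*. *Pax5* was at 0.203 ± 0.121 and 0.105 ± 0.0484 TPM in the deleted populations. Its mean scaled counts were 36.4 in control, 50.9 in *Slc2a1* gRNA and 23.4 in *Slc2a1/3/5/6/8* gRNA cells. The log2 fold changes of 0.49 and -0.41 did not pass edgeR's test (adjusted p of 0.611 and 0.632), and the first ran opposite to the TPM means.

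Across the 9 samples, whose values share the libraries and the design, log2 CPM of *Irf4* followed that of *Prdm1* (Pearson r = 0.778) and *Pou2af1* (0.776), and *Tnfrsf13b* followed *Pou2af1* (0.719), while the lowest value among the pairs was -0.475 for *Sdc1* and *Pou2af1*. The genes most like *Pou2af1* by this measure, among 8314 genes, were *Trim65* (0.974), *Cpsf6* (0.967) and *Ssrp1* (0.95). Those most like *Tnfrsf13b* were *Cth* (0.987), *Yae1d1* (0.986) and *Gemin4* (0.983), and those like *Prdm1* included *Bahd1* (0.979) and *Jmy* (0.975). These values describe 9 points in 3 populations.

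In GRCm38, by the GENCODE M21 annotation, *Pou2af1* lies at chr9:51213708-51240080, *Tnfrsf13b* at chr11:61126755-61149372, *Xbp1* at chr11:5520659-5525893, *Irf4* at chr13:30749226-30766976, *Sdc1* at chr12:8771323-8793715, *Tnfrsf17* at chr16:11313812-11320074 and *Cd38* at chr5:43868553-43912375 on the plus strand. *Prdm1* at chr10:44437177-44528501 and *Slamf7* at chr1:171632403-171653035 lie on the minus strand. Apart from *Slamf7* and *Mzb1*, no identity gene shares exonic bases with another annotated gene.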

How the data were processed

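RNA of 5TGM1-Cas9 cells was analysed in 9 samples, grouped by the population in their labels. The authors prepared cDNA with oligo-dT primers (SMARTseq V4), sequenced paired reads and mapped them with Salmon 1.5.1 on the Galaxy platform. Their annotation is not given in the sources used here, and GENCODE M21, used here for coordinates and transcripts, holds 49351 of the 53077 names. Annotated lengths matched within 0.5 base for 99.2% of genes with 1 transcript. The deposited tables give estimated counts, TPM, and transcript lengths in bases weighted by abundance. After rounding, edgeR 4.0.16 under R 4.3.3 was run on these counts (quasi-likelihood test, TMM, default filter on low counts, replicate number as a block since the study used paired tests, all 9 samples in 1 fit, Benjamini-Hochberg adjustment over 13834 genes, threshold 0.05). Standard errors were derived from the F statistic. On simulated data of *Slc2a1/3/5/6/8* gRNA against control, with 13543 genes tested, 72 of 96 genes changed 2-fold and 95 of 98 changed 4-fold were recovered, with 6 other calls. The simulated counts held no replicate effect and no outlying sample. Recovery of smaller changes, such as those of *Pou2af1* and *Tnfrsf13b*, was not measured. Alternatives used DESeq2 1.42.0, limma 3.58.1 on log2(TPM + 1) and log2(TPM + 0.1), total count and RLE scaling, other filters, and samples left out in turn. Transcript lengths were compared by exact permutation tests. Depth was 21838805 to 30537105 estimated counts per sample. The labels do not say that replicates came from separate cultures, though the study calls them biological, and p-values measure the spread between these samples.

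The members and the lists were chosen with earlier results of these data known. Named were the 10 members, at most the 3 called genes with the smallest adjusted p of each of 7 lists per comparison, the 3 genes most like each of 3 members, and other-lineage markers with a mean of at least 1 TPM; *Pdgfra* and the genes given for their role or level alone (the POU partners, the ligands and receptor of BAFF, other syndecans, *Bst1*, *Ern1* and B cell markers) were added after values were seen. *Camlg* was not found by that name. Some genes that these rules name are not reported here.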

Additional observations from a re-analysis of the deposited data

Results flagged for a closer look

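Over the lists beside the identity genes, 7 genes differed between the deleted populations by edgeR's test of *Slc2a1/3/5/6/8* gRNA against *Slc2a1* gRNA cells, where 2.31% of all genes passed, and 6 of them fall under the rule for named genes. *Jchain* was higher in *Slc2a1/3/5/6/8* gRNA cells by a log2 fold change of 1.92 (SE 0.18, adjusted p = 0.000221), higher in 3 of 3 pairs, and it passed in each of the 9 fits with a sample left out and with no replicate block (adjusted p = 0.000229). *Trp53inp1*, a stress-response gene, was higher by 0.63 (adjusted p = 0.016), *Herpud1* by 0.51 (adjusted p = 0.0312) and *Glce* by 0.78 (adjusted p = 0.0215). *Epcam* was lower, at -0.57 (adjusted p = 0.0246), and *Id3* at -0.75 (adjusted p = 0.0361). With no replicate block these 5 calls were lost (adjusted p of 0.125, 0.0587, 0.0757, 0.0759 and 0.125 in this order). Of 9 fits with a sample left out they held in 7, 2, 5, 3 and 2. *Cd93*, a surface receptor outside the naming rule, was higher by 0.88 (adjusted p = 0.0338), and the stromal marker *Pdgfra*, with no count in *Slc2a1/3/5/6/8* gRNA cells, also passed (adjusted p = 0.0304). None of the 9 tested identity genes passed in this fit. Groups of 3 samples were too small for a test of outlying samples.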

How the results depend on the processing

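Of the calls among the identity genes, *Pou2af1* and *Tnfrsf13b* kept their direction in each alternative run for both comparisons with control. Identity genes called in *Slc2a1* gRNA against control numbered 1, but 2 when low counts were kept, 4 when a fit held the 2 groups alone, 0, 0 and 0 by limma on log2(TPM + 1), on log2(TPM + 0.1) and on log2(TPM + 1) without immunoglobulin and mitochondrial genes, and 0 to 1 with a sample left out. In *Slc2a1/3/5/6/8* gRNA against control they numbered 2, but 3 with low counts kept (*Mzb1* higher, adjusted p = 1.85e-07), 0, 0 and 1 by these limma fits and 0 to 3 with a sample left out. Between the deleted populations they numbered 0, but 1 (*Mzb1*) with low counts kept and 0 to 1 with a sample left out. With low counts kept the standard error of *Mzb1* was 0.13, against 0.35 (adjusted p = 8.48e-17 against 0.0904), and the cause was not tested. Genes called over the 7 lists in *Slc2a1* gRNA against control numbered 11, but 20 by DESeq2, 18 with low counts kept, 33 with only the 2 groups, 0, 2 and 2 by limma and 0 to 19 with a sample left out, of which the secretory list held 4, but 8, 7, 13, 0, 0 and 1 in the same order and 0 to 8. In *Slc2a1/3/5/6/8* gRNA against control they numbered 37, but 12, 12 and 19 by limma and 12 to 39 with a sample left out, and those of the secretory list 14, but 7 and 7 by limma with either pseudocount and 3 to 15. Between the deleted populations they numbered 7, but 16 by DESeq2, 17 with low counts kept, 1 with only the 2 groups, 1, 1 and 0 by limma, 1 to 9 with a sample left out and 1 with no replicate block. The block was checked: same-numbered samples deviated together with r of 0.1 to 0.189, -0.059 to 0.155 and -0.0922 to -0.0213 in the comparisons of *Slc2a1* gRNA with control, of *Slc2a1/3/5/6/8* gRNA with control and of the deleted populations. In the first each sample correlated best with its own number (different numbers gave -0.171 to 0.0312), a hint from the data and not from the design, and in the other two same-numbered values did not all stand above the rest, so a pairing over all 3 populations was not shown. With no replicate block *Pou2af1* (adjusted p of 0.0374 and 0.0224) and *Tnfrsf13b* (0.0124) still passed, while calls against control were lost for *Id3*, *Sec24d* and *Ext2* in *Slc2a1* gRNA cells (adjusted p of 0.0981, 0.06 and 0.0509) and *Ndst1* and *Sirt1* in *Slc2a1/3/5/6/8* gRNA cells (0.0687 and 0.0548). Directions that turned belonged to differences that passed no test. By the 3 limma fits in *Slc2a1* gRNA cells *Irf4* was at -0.01, *Prdm1* at -0.04, -0.05 and -0.05 and *Xbp1* at -0.11, where the median of all genes was shifted by -0.11, -0.16 and -0.12. *Xbp1* was at -0.09, -0.09 and -0.11 in *Slc2a1/3/5/6/8* gRNA cells, and between the deleted populations *Xbp1* was at 0.02, 0.02 and 0.00 and *Pou2af1* at 0.04, 0.04 and 0.02. The causes were not tested. With a sample left out, in *Slc2a1/3/5/6/8* gRNA against control *Xbp1* ran from -0.01 to 0.14, *Sdc1* ran from -0.43 to 0.00, *Tnfrsf17* ran from -0.78 to 0.71, and between the deleted populations *Irf4* ran from -0.01 to 0.12, *Sdc1* ran from -0.07 to 0.37, *Pou2af1* ran from -0.19 to 0.03, *Slamf7* ran from -0.02 to 0.32. Depth limited *Tnfrsf17* and *Cd38*.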
